A study of Mus musculus with 2 samples.

Results

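Mir139 and Mir490 are microRNA hairpins that lie in introns of genes of cardiac signalling, Pde2a for Mir139 and Chrm2 for Mir490. A hairpin is the folded stretch of a primary transcript from which short mature microRNAs are cut. The pair was picked by gene symbol in GENCODE release M21 and matched by Ensembl identifier, ENSMUSG00000065446.1 for Mir139 and ENSMUSG00000070075.1 for Mir490, which makes 2 of the 2202 hairpins in the deposited tables. Both were proposed with their levels in this heart already known, so the levels below are a description and carry no test.

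The hairpins were counted by microRNA-seq in total RNA from heart tissue of 25-day-old B6CASTF1/J females, which are F1 mice from the strains C57BL/6J and CAST/EiJ. There were 2 libraries in 1 group, given in the labels as biological replicates 2 and 1 with separately numbered animals, although both carry the same donor identifier. No allele, agent or surgery is given in the labels, and no second group was analysed here. The tissue is a whole organ, so fewer cells of a type and less RNA per cell cannot be told apart.

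Pde2a encodes a phosphodiesterase that breaks down cyclic AMP and cyclic GMP and is itself stimulated by cyclic GMP. Chrm2 encodes the muscarinic M2 acetylcholine receptor, the main receptor through which the vagus nerve slows the heart, and it acts through inhibitory G proteins that lower cyclic AMP. A microRNA in an intron on the strand of its host can be processed from the host's own primary transcript, and once loaded into Argonaute it represses messenger RNAs that pair with its seed, the bases from position 2 to 8 of the mature strand. Messenger RNA of the host genes is not measured by this assay.

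The hairpin sequences from RefSeq (GRCm38.p6, plus strand for both) are shown because they decide which reads can be assigned to each locus. Capitals mark the annotated mature arms, the 5p arm first.
Mir139, chr7:101475376-101475443: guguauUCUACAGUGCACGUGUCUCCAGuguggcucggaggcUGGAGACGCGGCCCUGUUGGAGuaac
Mir490, chr6:36421742-36421825: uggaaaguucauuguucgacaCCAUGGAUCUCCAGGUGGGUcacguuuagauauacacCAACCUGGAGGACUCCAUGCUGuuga
Both RefSeq hairpins were identical to the GENCODE transcripts of the counted genes. The mature arms follow 5′ to 3′, with the seed in capitals, to compare what each would pair with.
miR-139-5p: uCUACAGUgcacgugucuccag
miR-139-3p: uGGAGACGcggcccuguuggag
miR-490-5p: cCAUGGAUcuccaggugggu
miR-490-3p: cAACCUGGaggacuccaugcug

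The 4 seeds differed from each other, and 0 other mouse mature microRNAs in the RefSeq table shared any of them, so neither hairpin has a seed family there. The longest run the pair shared was 7 nt, UCUCCAG, which lies in the 5p arm of each. Against all other hairpins on either strand, the longest shared run was 11 nt for Mir139 and 12 nt for Mir490. Each mature arm was found exactly in the transcripts of 1 annotated gene, its own hairpin. The tables do not separate the arms, so each count below is the sum over a hairpin.

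Mir139 spans 68 nt and Mir490 84 nt. In the minimum free energy fold predicted by RNAfold, the arms of Mir139 formed 19 base pairs with each other around a stretch of 14 nt between the arms. Those of Mir490 formed 16 base pairs, with 17 nt between the arms. The folds are predictions and were not measured.

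Mir139 lies on chromosome 7 in intron 2 of the longest protein-coding transcript of Pde2a (gene at 101421691 to 101512827, mm10). That intron is 29902 nt long and the hairpin sits 23907 nt after its upstream exon and 5927 nt before the next one. The hairpin also falls in intron 3 of Gm45837, a longer annotated protein-coding gene on the same strand that overlaps most of Pde2a. Mir490 lies on chromosome 6 in intron 2 of the protein-coding transcript of Chrm2 (gene at 36388084 to 36528414). This intron is 134418 nt long, with the hairpin 32990 nt from the upstream exon and 101344 nt from the downstream one. Neither hairpin overlapped an exon of these transcripts, neither had a gene on the opposite strand, and the nearest other hairpin was 405741 nt from Mir139 and 277572 nt from Mir490. Both therefore stand alone in their hosts, not in a microRNA cluster.

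**Figure D1:**
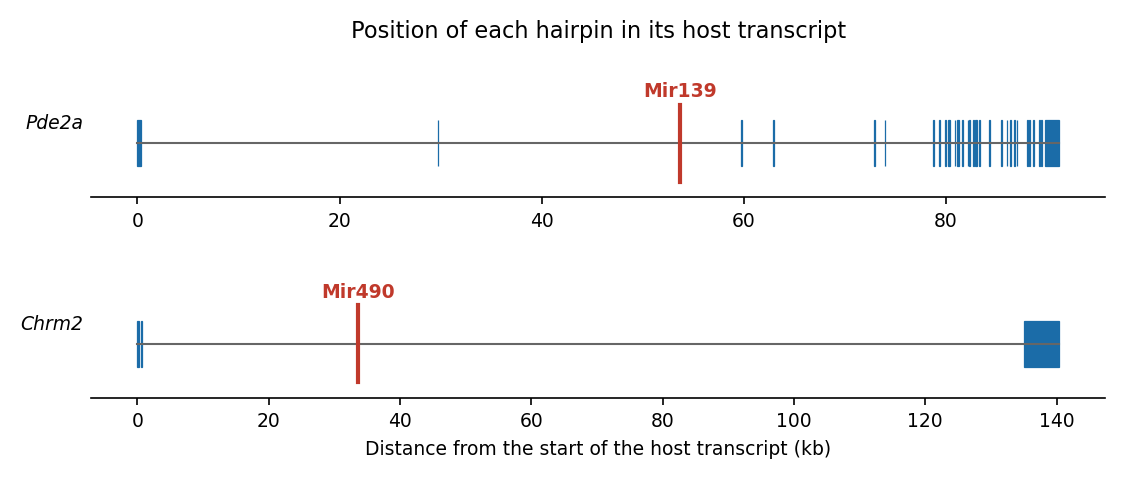
Exons (blue) of the longest protein-coding transcripts of Pde2a and Chrm2 along the distance from the transcript start in kb, with the hairpin in red; each panel has its own scale. Mir139 sits 53685 nt and Mir490 33658 nt from the start of the host transcript, each in intron 2.

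Library depth was similar in both hearts. Replicate 2 held 6452546 reads with 2661090 on hairpins, and replicate 1 held 5005996 reads with 2050498 on hairpins. Levels are in CPM, the count of a hairpin scaled by the sum of hairpin counts of its library. Reads matching several places made up 41.6% of replicate 2 and 38.5% of replicate 1 and entered no hairpin count, so every rank and share below is one among counted reads. Errors are SD with n = 2, and intervals are 95% intervals that cover counting error only, since PCR copies were not told apart.

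Mir139 was one of the most abundant counted hairpins of the heart. It had 88793 counts (33367 CPM) in replicate 2 and 83954 counts (40943 CPM) in replicate 1, a mean of 37155 ± 5357 CPM. These counts were 3.34% of the hairpin counts of replicate 2, with a Wilson interval of 3.32 to 3.36, and 4.09% of those of replicate 1, with one of 4.07 to 4.12. It ranked 10 in replicate 2 and 8 in replicate 1, and 9 by mean CPM. The hairpins down to and including Mir139 held 71.7% of all hairpin counts in replicate 2 and 59.7% in replicate 1.

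Mir490 was about 2 orders of magnitude lower and well above the level at which counts run out. It had 1197 counts (450 CPM) in replicate 2 and 805 counts (393 CPM) in replicate 1, a mean of 421 ± 40.5 CPM. The Wilson intervals of its share were 0.0425% to 0.0476% in replicate 2 and 0.0366% to 0.0421% in replicate 1. A floor of 3 counts corresponds to 1.13 CPM in replicate 2 and 1.46 CPM in replicate 1. It ranked 80 in replicate 2 and 92 in replicate 1, and 86 by mean, within the 288 hairpins that had at least 10 counts in both libraries. The median of those 288 was 83.6 CPM in replicate 2 and 104 CPM in replicate 1, so Mir490 lay in their upper part.

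On the opposite strand both hairpins had 0 counts in both libraries, and the column counted without regard to strand gave the same counts as the column for the sense strand. The counts of the pair were therefore the same in the sense and unstranded columns, whereas the library totals of these columns differed.

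**Figure D2:**
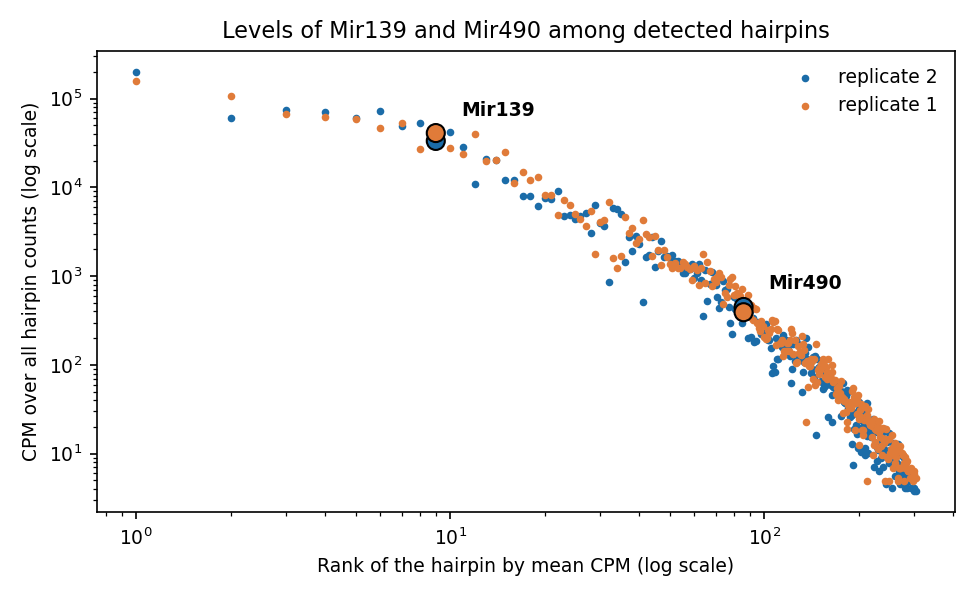
CPM of the hairpins with at least 10 counts in both libraries (log scale) against rank by mean CPM (log scale), replicate 2 in blue and replicate 1 in orange. Mir139 stands at rank 9 near the top and Mir490 at rank 86, and for both the points of the 2 libraries nearly coincide on this scale.

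Within a library, counts of Mir139 outnumbered those of Mir490 by 74.2 to 1 in replicate 2 (exact interval 70.1 to 78.6). In replicate 1 the ratio was 104 to 1 (97.3 to 112), and the mean ratio was 89.2 ± 21.3. The intervals of the 2 hearts do not overlap. These are ratios of counts, and how closely counts of different hairpins follow numbers of molecules was not tested. As a share of the pair, Mir490 made up 1.33% of counts in replicate 2 and 0.950% in replicate 1. Reads are about as long as a mature microRNA, so CPM was not divided by length. Per nucleotide of hairpin the ratio was 91.6 in replicate 2 and 129 in replicate 1.

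Around both hairpins the order of levels was loose. Mir23a and Mirlet7b, 3 and 2 places above Mir139 by mean, were higher than Mir139 in both libraries, with lowest values of 46419 and 49199 CPM. Mir99a, directly above, had 52650 CPM in replicate 2 and 27061 CPM in replicate 1, so its values span those of Mir139. Mir143, a smooth muscle microRNA directly below, had 42505 CPM in replicate 2 and 28118 CPM in replicate 1 and spans them too.

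Further down the order, Mir26b stayed below Mir139 in both libraries, at 28458 CPM in replicate 2 and 23741 CPM in replicate 1. Mir22, known from cardiac hypertrophy in mice, was at 10926 CPM in replicate 2 and at 40443 CPM in replicate 1. It was lower than Mir139 in each library, although its replicate 1 value falls within the range of Mir139 over both. Mir99a and Mir143, by contrast, were above Mir139 in replicate 2 and below it in replicate 1.

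Mir490 was overlapped by 4 of its 6 neighbours, Mirlet7a-1, Mir379, Mir872 and Mir25. Mir20a (555 and 614 CPM in replicates 2 and 1) and Mir541 (476 and 592 CPM in replicates 2 and 1) lay above it in both libraries. Mir25 had 203 CPM in replicate 2 and 611 CPM in replicate 1, a wider range than that of Mir490. The ranges of Mir379 and Mir872 were narrower than that of Mir490.

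**Figure D3:**
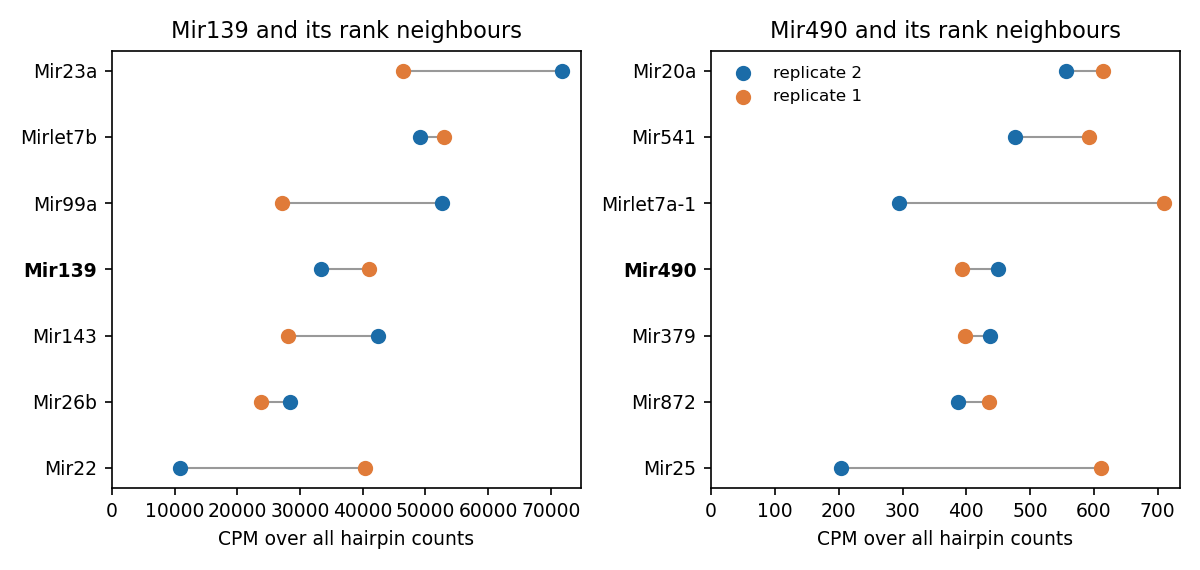
CPM in replicate 2 (blue) and replicate 1 (orange) of each hairpin and of the 3 hairpins above and below it by mean CPM, with a line joining the 2 libraries. Mir139 (33367 and 40943 CPM) and Mir490 (450 and 393 CPM) have shorter lines than Mir22 (10926 and 40443 CPM) and Mir25 (203 and 611 CPM). Mirlet7b and Mir26b have shorter lines than Mir139, and Mir379 and Mir872 have shorter ones than Mir490.

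By closeness over both libraries, measured as the Euclidean distance of log2(scaled CPM + 1) values, where scaling used the TMM factors of edgeR, Mir379 was nearest to Mir490 at a distance of 0.05. Mir379 belongs to the imprinted Dlk1-Dio3 cluster and had 473 and 367 scaled CPM in replicates 2 and 1, beside 487 and 362 for Mir490. Mir132 at 0.22, Mir872 in an intron of Ift74 at 0.26, Mir30c-1 in an intron of Nfyc at 0.50 and Mir541 at 0.60 came next. For Mir139, Mir143 was nearest at 0.64, before Mirlet7b at 0.67, Mir26b at 0.82, Mir99a at 0.89 and Mirlet7g at 1.02. A distance over 2 libraries rests on 2 values per hairpin and ranks levels more than patterns.

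Both hairpins were also placed among those with the same kind of position. Of the 2202 hairpins, 776 lie in introns of protein-coding genes on the same strand, and 116 of these had at least 10 counts in both libraries. They held 57.2% of hairpin counts in replicate 2 and 58.6% in replicate 1. Mir139 was the fifth of them in both libraries, with 5.83% of intronic counts in replicate 2 and 6.99% in replicate 1. Mir378a, Mir126a, Mir23b and Mirlet7g stood above it by mean; Mir378a, Mir126a and Mir23b are named after their values were seen. Mir490 was number 36 in replicate 2 and 39 in replicate 1, with 0.0786% and 0.0670% of intronic counts.

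On a chosen list of microRNAs whose hosts are signalling or channel genes, all others were lower than Mir139. The list was picked with earlier results of these data known. It does not cover every such host, and Mir1904 in Pde4d, for one, is left out. Mir378a, Mir126a, Mir23b and Mirlet7g, which stood above Mir139 by mean, were not on it either. The shares of the list given below depend on this choice. The list held 19 hairpins, Mir139 and Mir490 included. Of these, 10 had at least 10 counts in both libraries, beside 288 of all 2202 hairpins. Mir139 alone supplied 70.9% of the list's counts in replicate 2 and 67.2% in replicate 1, and Mir490 0.956% and 0.644%. Mir149, in an intron of Gpc1, a heparan sulphate proteoglycan, followed at 8038 CPM in replicate 2 and at 14862 CPM in replicate 1. Mir151, in an intron of the focal adhesion kinase gene Ptk2, had 4768 CPM in replicate 2 and 4369 CPM in replicate 1.

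Mir490 was the fourth of this list, after Mir139, Mir149 and Mir151, and the ranges of these 4 do not overlap one another. The other 15 hairpins had means of at most 135 CPM. Of these, 5 lie within the serotonin receptor gene Htr2c (Mir448, Mir764, Mir1264, Mir1298 and Mir1912) and were singled out after their values were seen. They had 0 counts in both libraries, which allows at most the floor of 3 counts each. So had 1554 of all 2202 hairpins, these 5 included.

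The myosin gene introns hold 3 of the 8 cardiomyocyte marker hairpins used below. Mir208a, in Myh6, the main ventricular myosin gene of the adult mouse, had 5862 CPM in replicate 2 and 1620 CPM in replicate 1. Mir499, in Myh7b, had 2317 CPM in replicate 2 and 2629 CPM in replicate 1. Mir139 exceeded the sum of Mir208a, Mir208b and Mir499 by 4.02 times in replicate 2 and 9.22 times in replicate 1. Mir490 was below Mir208a and Mir499 in both libraries. It was above Mir208b, the Myh7 hairpin, which had 112 CPM in replicate 2 and 191 CPM in replicate 1, by 4.03 and 2.06 times.

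**Figure D4:**
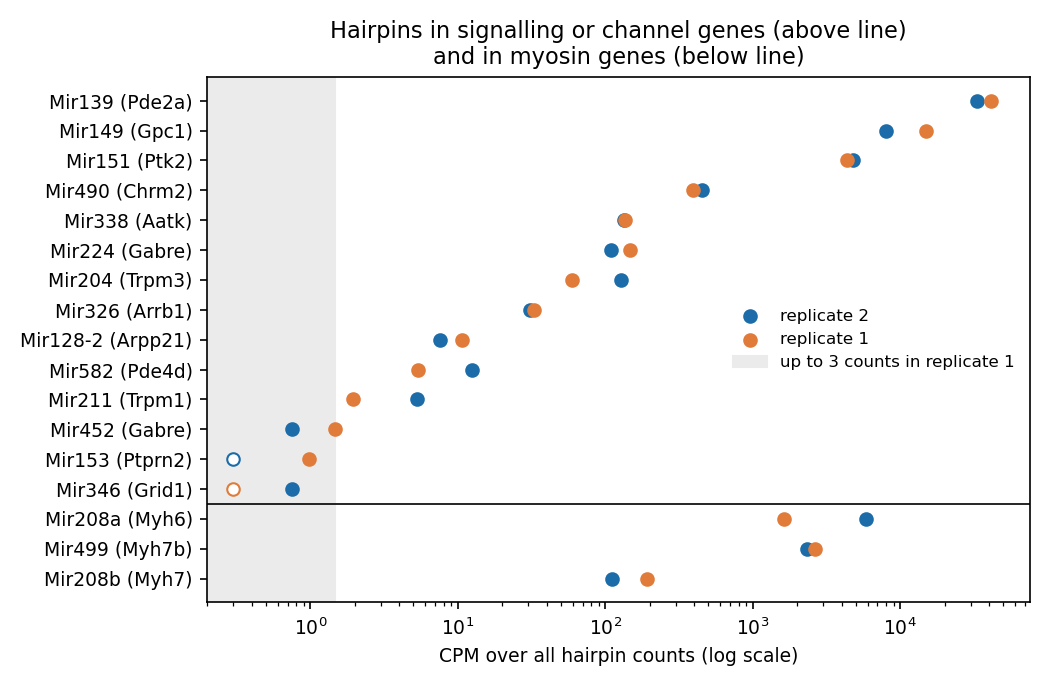
CPM (log scale) in replicate 2 (blue) and replicate 1 (orange) of hairpins in signalling or channel genes, above the line, and in myosin genes, below it, with the host in parentheses. Open circles are values of 0 drawn at the left edge, the shaded band is up to 3 counts in replicate 1, and the 5 Htr2c hairpins with 0 counts in both libraries are left out; Mir139, at 33367 and 40943 CPM, stands to the right of all others in this plot.

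The libraries of the 2 hearts were compared across 326 hairpins, those that reached 10 counts in either library. Each hairpin's 2 counts were set against the ratio of TMM-scaled library sizes with an exact two-sided binomial test and Benjamini-Hochberg adjustment. This test compares the libraries and not conditions, and with 2 animals no test of the animals is possible. It called both members, Mir490 higher and Mir139 lower in replicate 2, where it called 204 of all tested hairpins (62.6%), 118 higher (36.2%) and 86 lower (26.4%). Scaling by total count gave 76 higher (23.3%) and 117 lower (35.9%). Among the 97 hairpins with at least 500 counts in both libraries, 90.7% were called, so a call at such depth says little about a hairpin.

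How large the difference looked depended on the scaling, and its direction did not. For Mir139 the log2 ratio of replicate 2 over replicate 1 was -0.06 on the log2(scaled CPM + 1) scale (adjusted exact binomial p = 4.01e-20), and 93.3% of the tested hairpins had a larger absolute ratio. With total counts it was -0.30, and 69.0% had a larger one. The median of all tested hairpins was 0.09 with TMM and -0.14 with total counts, and relative to it Mir139 stood at -0.15 and -0.16. Mir490 had a log2 ratio of 0.43 (adjusted exact binomial p = 2.24e-10), which is 0.34 above the median with either scaling, and 58.3% of tested hairpins had a larger absolute ratio. With total counts it was 0.20, and 77.0% had a larger one. Mir139 was thus lower and Mir490 higher in replicate 2 under both scalings. The SD of the log2 ratios over the 326 hairpins was 1.05 and the biological coefficient of variation from edgeR's common dispersion was 0.467, both with TMM scaling. On TMM-scaled CPM the coefficient of variation was 3.18% for Mir139 and 20.8% for Mir490. On CPM over total counts it was 14.4% for Mir139 and 9.61% for Mir490, so which of them varied more turned with the scaling.

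Of the signalling and channel gene list, 11 hairpins were tested. With TMM, 4 of the 11 were higher in replicate 2, Mir490 and Mir151 among them, and 2 lower, Mir139 and Mir149, with a median log2 ratio of 0.21 beside 0.09 for all tested hairpins. With total counts the list gave 4 higher and 3 lower, with a median of -0.02 beside -0.14. Over all tested hairpins the shares called were 36.2% higher and 26.4% lower with TMM, and 23.3% and 35.9% with total counts, and the counts of so short a list cannot be set apart from them. Of the 3 myosin hairpins, 1 was higher and 1 lower with TMM (median 0.05), and 1 higher and 2 lower with total counts (median -0.18).

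**Figure D5:**
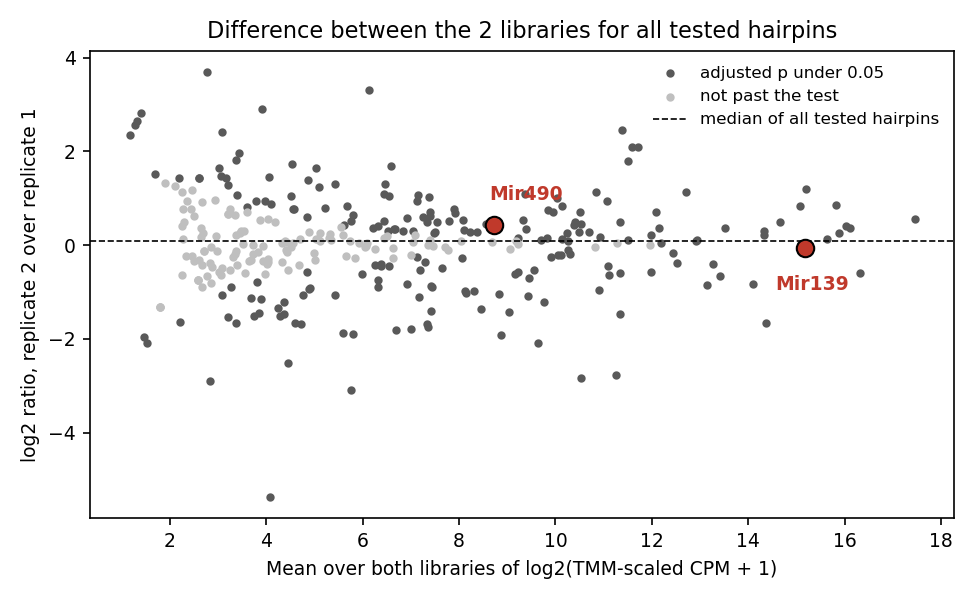
Log2 ratio of replicate 2 over replicate 1 against the mean over both libraries of log2(TMM-scaled CPM + 1) for the 326 tested hairpins, dark where the adjusted p is under 0.05, with the median of 0.09 dashed. Mir139 (-0.06) lies just below the median line and Mir490 (0.43) above it, both inside the spread of the other hairpins.

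Marker microRNAs of cell types moved between the same libraries. The 8 cardiomyocyte hairpins, 4 of them with at least 10 counts in both libraries, summed to 0.831% of counts in replicate 2 and 0.450% in replicate 1. Nearly all of this came from the 3 myosin hairpins, at 0.829% in replicate 2 and 0.444% in replicate 1. The Mir1a and Mir133 hairpins of the list had few counted reads. Reads matching several places enter no count, and how many of them came from these hairpins was not tested. The sum is therefore no measure of all cardiomyocyte microRNA. Its larger value in replicate 2 came from Mir208a. These sums are shares of total counts, whereas the calls here and below use TMM. Of the 4 tested, 1 was called higher and 2 lower, with a median log2 ratio of -0.25. Over all tested hairpins, 36.2% were called higher and 26.4% lower, with a median of 0.09. Counts of so short a list cannot be set apart from these shares. Mir143 and Mir145a of smooth muscle cells and pericytes summed to 4.83% in replicate 2 and 2.94% in replicate 1. The endothelial pair Mir126a and Mir126b, with nearly all counts from Mir126a, summed to 6.10% in replicate 2 and 10.8% in replicate 1.

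The blood lists behaved differently from each other. The 3 erythroid hairpins summed to 0.0869% in replicate 2 and 0.178% in replicate 1, and the 4 leukocyte hairpins to 0.465% in both. Mir486, in an intron of Ank1, supplied most of the erythroid sum, at 581 CPM in replicate 2 and 980 CPM in replicate 1. Whether its reads came from erythroid cells was not tested. Within the leukocyte list 3 hairpins were called higher and Mir155 lower (median log2 ratio 0.90), so the equal sums hide opposite moves. Beside them, 36.2% of all tested hairpins were called higher and 26.4% lower. Of the 6 neuronal hairpins, 5 had 0 counts in both libraries and the other had 0 and 2 counts in replicates 2 and 1. In CPM, Mir139 went the way of the endothelial and erythroid sums. Mir490 went the way of the smooth muscle sum and of Mir208a. It went the other way from Mir208b, Mir499 and the few counted reads of Mir1a-2, 31 in replicate 2 and 94 in replicate 1. With 2 libraries a hairpin can only be higher or lower, so a shared direction says little about it. The part of cell composition in either ratio was not tested.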

How the data were processed

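The authors deposited, for each library, a table of raw counts per GENCODE M21 hairpin on mm10, per the file headers of the accompanying notes. No normalization had been applied. Aligner and counter are not given in the sources used here. Sense-strand counts were analysed, and of both stranded columns theirs summed to more. All 2202 identifiers matched GENCODE M21. Rows without a hairpin were left out of totals: in replicates 2 and 1, 41.6% and 38.5% of reads matched several places, 11.5% and 14.1% were unmapped, and 5.64% and 6.48% lay in no hairpin.

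TMM factors and the common dispersion (intercept only) came from edgeR 4.0.16 in R 4.3.3, binomial tests and intervals from SciPy 1.17.1, and folds from ViennaRNA 2.7.2. The pseudocount was 1 CPM. The binomial procedure was tested on simulated Poisson counts, with 2-fold changes up or down and no other variation between libraries. Of the 319 simulated hairpins tested, 195 carried such a change. The procedure called 80.5% of the changed hairpins and 2.42% of the unchanged ones. Such counts cannot show how often it calls under the spread between the 2 real libraries. Alternatives covered the unstranded column, other totals, DESeq2 1.42.0 size factors, filters, pseudocounts and leaving out each library.

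The members and lists were chosen with earlier results of these data known. Named hairpins were the members, the 3 neighbours on each side by mean CPM, the 5 nearest by distance, and the 6 highest of the signalling and myosin lists (the members, Mir149, Mir151, Mir208a and Mir499). Marker hairpins, Mir208b among them, came from a fixed list. The Htr2c hairpins and the top intronic ones were named after their values were seen.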

Additional observations from a re-analysis of the deposited data

Results flagged for a closer look

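Reads that matched several places numbered 2686901 in replicate 2 and 1925044 in replicate 1, above the floor of 3 counts, and lie outside the hairpin counts. They were not assigned to loci in the tables, so whether any came from Mir139 or Mir490 was not tested.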

How the results depend on the processing

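The log2 ratios of Mir139 and Mir490 kept their sign and stayed past the threshold under all 8 alternatives run for each, from -0.30 to -0.06 for Mir139 and from 0.20 to 0.43 for Mir490. The filters and pseudocounts left the counts and scaling of the pair as they were, so they could hardly change this outcome. Only the unstranded column, DESeq2 size factors, total counts and leaving out the 10 highest other hairpins changed the scaling. The count of hairpins called was 176 to 193 in the alternatives that changed it, against 204. The levels followed the total they were divided by. Mean levels of Mir139 and Mir490 were 52589 and 596 CPM in the unstranded column, 15266 and 173 CPM over all reads, and 114024 and 1319 CPM without the 10 highest other hairpins; the counts of the pair are the same in all of these, and only the totals differ. In the unstranded column Mir139 ranked 7. With each replicate alone, the level ranged from 33367 to 40943 CPM for Mir139 and from 393 to 450 CPM for Mir490, the rank from 8 to 10 and from 80 to 92, and the ratio of Mir139 to Mir490 from 74.2 to 104. No paired analysis was possible because both libraries belong to 1 group. Depth limits Mir490 more than Mir139, and 2 animals limit both.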
